A study of Mus musculus with 46 samples.

Results

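Glycolysis breaks glucose down to pyruvate and lactate in the cytosol, and the genes described here were 10 of its carriers and enzymes: Slc2a1, Hk1, Hk2, Gpi1, Pfkl, Pfkp, Aldoa, Gapdh, Eno1 and Ldha. They were picked by name for their place in the pathway and not by any measured value, out of 22238 mouse protein-coding genes. The data were ChIP-Seq peak lists for the histone variant H3.3, for H3 trimethylated at lysine 4 (H3K4me3) and for H3 trimethylated at lysine 36 (H3K36me3), and all lists rest on the mouse genome build mm9. Every peak that touched the span from 1 kb before a gene to 1 kb after it was given to that gene. The score of a gene in a library is the sum of its peaks' tag counts, scaled by the authors to 10 M tags, and its covered length is the sum of the lengths of those peaks.

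Of 46 samples, 30 had peak lists and 16 were inputs. Mouse embryonic fibroblasts (MEFs) that carry a green fluorescent reporter at the Oct4 locus were infected with pMXs retroviruses for Oct4, Sox2, Klf4 and c-Myc. On the route to induced pluripotent stem cells (iPSCs), libraries of all 3 marks came from MEFs before induction (D0), from unsorted cells of day 3 (D3), from the fraction without the fibroblast surface protein Thy-1 on days 6 and 9 (D6T- and D9T-), from the fraction with the surface antigen SSEA-1 on days 12 and 16 (D12S+ and D16S+), and from iPSCs. For H3.3 the other fraction of each sort (D6T+, D9T+, D12S- and D16S-) and the mouse embryonic stem cell line ESD3 were also profiled. A second conversion, of MEFs to hematopoietic cells with Scl, Lmo2, Runx1 and Bmi1 on OP9 stromal cells, gave H3.3 libraries of MEF, of day 4 (D4), and of cKit+ and cKit- cells. Each group was 1 library, so no difference below has a replicate check and no test was run. A difference is called higher or lower when it is past 2-fold. The share of genes past the same fold is given beside each count. In these shares, all genes stands for the genes with a peak in at least 1 of the 2 libraries compared. Between D0 and iPSCs that was 15732 of the 22238 genes in H3.3, and 11736 in H3K36me3. Medians of log2 differences over all genes cover only genes with a peak in both libraries.

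Histone H3.3 is put into chromatin outside DNA replication and gathers over the bodies and the regulatory regions of active genes. H3K4me3 marks the starts of active or poised genes, and H3K36me3 is laid down along gene bodies as RNA polymerase II elongates. Pluripotent cells are known to lean on glycolysis more than fibroblasts do, and a shift away from oxidative metabolism is a known feature of reprogramming. Of the genes here, Slc2a1 encodes the glucose carrier GLUT1, Hk1 and Hk2 the hexokinases that trap glucose in the cell, Gpi1 the isomerase that turns glucose 6-phosphate into fructose 6-phosphate, and Pfkl and Pfkp the liver and platelet forms of phosphofructokinase, the committed step. Aldoa encodes the aldolase that splits the sugar into trioses, Gapdh and Eno1 enzymes of the lower part of the pathway, and Ldha the lactate dehydrogenase subunit that makes lactate from pyruvate.

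In mm9 the genes lie at chr4:118781316-118809935 on the plus strand (Slc2a1), chr10:61731603-61842656 on the minus strand (Hk1), chr6:82675019-82724448 on the minus strand (Hk2), chr7:34987141-35015308 on the minus strand (Gpi1) and chr10:77449692-77472828 on the minus strand (Pfkl). Pfkp lies at chr13:6579014-6648023 (minus), Aldoa at chr7:133938748-133944265 (minus), Gapdh at chr6:125111871-125116485 (minus), Eno1 at chr4:149610830-149622988 (plus) and Ldha at chr7:54096845-54110997 (plus). The median window was 27.7 kb for the 10 genes and 17.5 kb for all genes. In 3 of them another protein-coding gene reaches into the window: 1810043G02Rik for Pfkl, Pitrm1 for Pfkp and Iffo1 for Gapdh.

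The 250 bases before the start site are shown for the 4 genes of this set that hold ACGTG, the core of the element that hypoxia-inducible factors bind, since these factors and Myc are known to drive glycolysis genes. The sequences are RefSeq's (promoters of build GRCm38.p6, with an entry for 10 of the 10 genes), each found once and without mismatch in mm9, and are written 5′ to 3′ along the gene's own strand. They lie at chr4:118781100-118781349 (Slc2a1, plus), chr6:82724449-82724698 (Hk2, minus), chr7:133942769-133943018 (Aldoa, minus) and chr7:54100924-54101173 (Ldha, plus). Capitals mark every match to CACGTG (the E-box that Myc proteins bind), ACGTG or GGGCGG (the GC box) on either strand, so that a match on the other strand reads CACGT or CCGCCC.
Slc2a1: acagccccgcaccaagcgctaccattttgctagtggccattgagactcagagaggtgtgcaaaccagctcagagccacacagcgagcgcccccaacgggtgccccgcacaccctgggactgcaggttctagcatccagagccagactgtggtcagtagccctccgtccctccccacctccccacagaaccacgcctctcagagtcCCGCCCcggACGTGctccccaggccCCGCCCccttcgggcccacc
Hk2: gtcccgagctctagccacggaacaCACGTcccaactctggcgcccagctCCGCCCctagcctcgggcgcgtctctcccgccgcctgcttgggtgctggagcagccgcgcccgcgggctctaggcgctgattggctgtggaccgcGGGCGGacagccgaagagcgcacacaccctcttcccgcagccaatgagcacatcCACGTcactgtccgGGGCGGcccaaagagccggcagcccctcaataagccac
Aldoa: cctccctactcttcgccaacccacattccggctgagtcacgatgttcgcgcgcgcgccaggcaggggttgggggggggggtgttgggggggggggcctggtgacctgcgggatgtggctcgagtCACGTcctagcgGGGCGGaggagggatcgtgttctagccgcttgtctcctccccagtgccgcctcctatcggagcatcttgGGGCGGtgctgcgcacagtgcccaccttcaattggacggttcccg
Ldha: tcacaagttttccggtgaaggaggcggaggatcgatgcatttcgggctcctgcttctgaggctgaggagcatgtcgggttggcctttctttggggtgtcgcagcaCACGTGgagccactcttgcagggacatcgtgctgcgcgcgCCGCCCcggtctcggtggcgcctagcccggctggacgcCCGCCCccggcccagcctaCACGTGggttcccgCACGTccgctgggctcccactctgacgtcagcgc

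ACGTG was found before 4 of the 10 starts, against 16.6% of 32851 RefSeq promoters in the same window. The E-box lies before Ldha alone, at 145 and 48 bases from the start, and 6.02% of all promoters hold it. Each E-box of Ldha holds ACGTG on both strands, so its matches to the 2 motifs overlap. GGGCGG was found before 6 of the 10, those of Slc2a1, Hk2, Gpi1, Pfkp, Aldoa and Ldha, against 32.7%. The octamer ATGCAAAT, which Oct4 can bind, and the TATA box TATAAA were found before none of the 10, against 1.6% and 12.4% of all promoters. For genes with several RefSeq starts the window of 1 start was used. Other starts of Eno1 had GGGCGG before them, and the other start of Ldha had none of these motifs. These matches describe the letters of the window only.

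The lists differed widely in how much was called. H3.3 libraries held from 18.7 M tags (D16S+) to 91.8 M (cKit+), from 25637 to 108179 peaks, and from 1.65% (cKit+) to 37.2% (D4) of their tags in peaks. The share of tags in peaks ran from 3.71% (D16S+) to 34.8% (D6T-) for H3K4me3 and from 1.07% (D12S+) to 42.4% (D9T-) for H3K36me3. Because of this, each score is set beside the gene's percentile, the share of all genes with a lower score per kb of window in the same library. Fibroblast markers had H3.3 peaks at 8 of 8 genes in D0 and at 2 of 8 in iPSCs (summed scores 3226 and 64.6), and pluripotency markers at 4 of 10 in D0 (74.9), 10 of 10 in iPSCs (7065) and 10 of 10 in ESD3 (1555). Of 10 hematopoietic markers, 5 had an H3.3 peak in cKit+, and Ptprc, Kit, Itga2b, Laptm5 and Coro1a had none there.

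All 10 glycolysis genes had an H3.3 peak in each of the 12 libraries of the reprogramming series, where the share of all genes with a peak ran from 43.5% (D16S+) to 63.5% (D12S-). By score per kb of window, Aldoa, Gapdh and Eno1 were near the top of every list. Over those 12 libraries the percentile of Aldoa ran from 97.6 to 99.7, that of Gapdh from 98.7 to 99.7 and that of Eno1 from 97.8 to 99.5. By summed score alone the percentiles in D0 and iPSCs were 87.4 and 90.9 for Aldoa, 91.4 and 90.1 for Gapdh, and 95.5 and 97.2 for Eno1. Peaks were counted whole, and over short genes they could reach past the window: the D0 peak of Gapdh was 13.8 kb long and its window 6.62 kb. Their scores followed one another along the route. Aldoa had 185 in D0, 151 in D3, 271 and 212 in D6T- and D9T-, 172 and 181 in D12S+ and D16S+, 141 in iPSCs and 147 in ESD3. Gapdh had 242, 219, 332, 270, 186, 172, 133 and 103 in the same order, and Eno1 had 362, 338, 596, 452, 323, 301, 265 and 230. The highest value of each along the route was in D6T-, whose list also held 19.3% of the tags in peaks, and no step between neighbouring libraries of the route passed 2-fold for any of these 3 genes. H3.3 peaks covered from 84.8% to 100% of the Eno1 window in the 7 libraries of the route. The middle and the last of 3 equal parts of Eno1 were covered in full in each of them, and the first part least in iPSCs, at 52.8%.

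**Figure D1:**
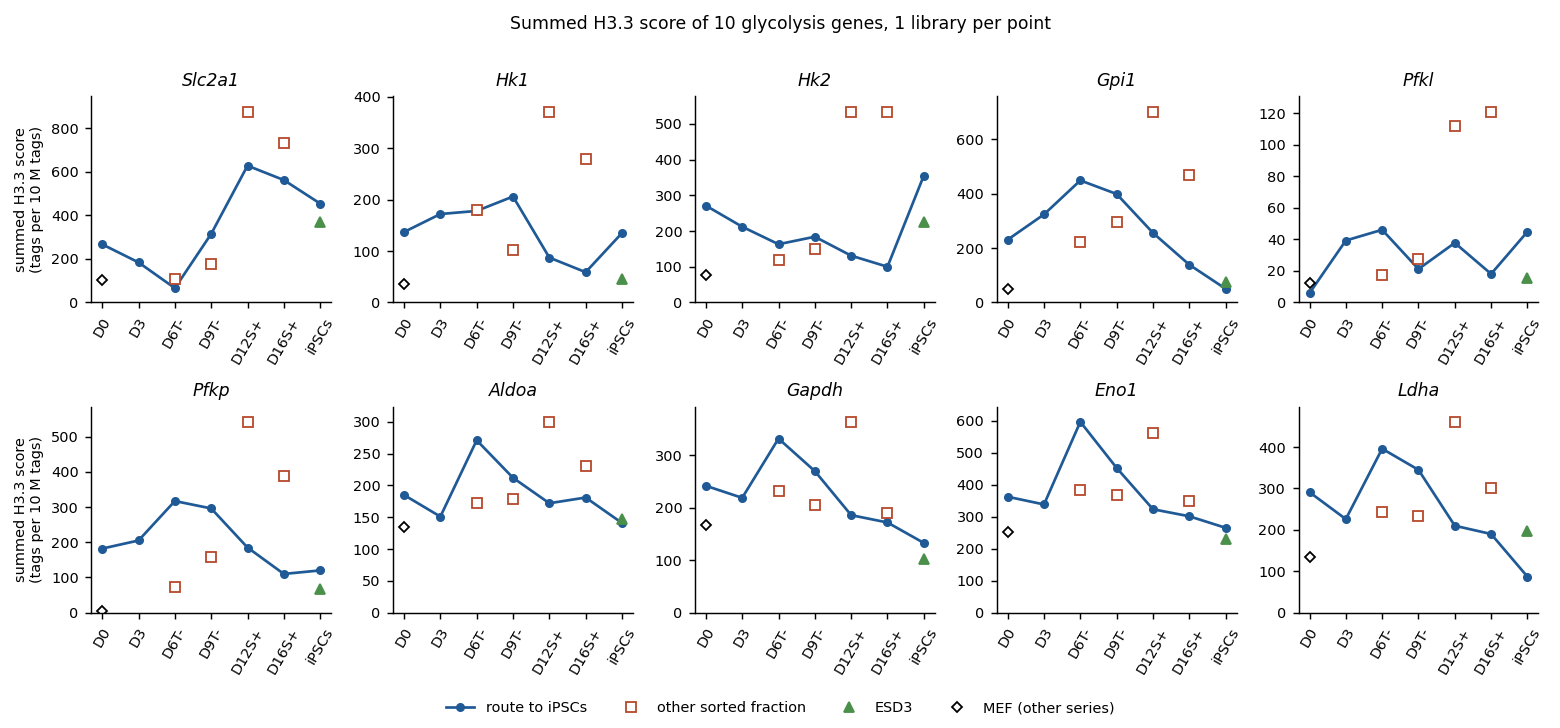
Summed H3.3 score of each gene, in tags per 10 M tags, in 1 library per point: the line joins the 7 libraries of the route to iPSCs, and the further markers, named in the legend, are the other sorted fraction of the same day, ESD3 and MEF. Slc2a1 dips to 65.8 in D6T- and stands at 628 in D12S+, whereas Gpi1 and Ldha end at 50.4 and 87 in iPSCs.

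Slc2a1, the gene of the glucose carrier, had the widest range of H3.3 scores among the 10 along the route. Its H3.3 score was 267 in D0, 184 in D3, 65.8 and 315 in D6T- and D9T-, 628 and 562 in D12S+ and D16S+, and 454 in iPSCs, and 368 in ESD3. The covered length moved with it, from 18.7 kb in D0 down to 4.57 kb in D6T- and up to 33.4 kb in D12S+ and 35.1 kb in iPSCs. The gene was lowest in the day 6 library, and the SSEA-1 fractions, the iPSCs and ESD3 stood above D0 and all earlier days.

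Between D3 and D6T- Slc2a1 was lower by a log2 difference of -1.48 (95% interval from counting error only, -1.73 to -1.24), while the median of all genes was 0.82 higher. Only 7.14% of all genes were called lower in this step, and Slc2a1 was the only 1 of the 10. From D6T- to D9T- it was higher by 2.26 (2.04 to 2.48), where 6.86% of all genes were called higher, and again it was the only 1 of the 10. From D0 to D12S+ the difference was 1.23, which is 2.35-fold. By percentile it went from 88.2 in D0 to 65.6 and 91.7 in D6T- and D9T-, 99 and 99.4 in D12S+ and D16S+, and 97.3 in iPSCs, with 98.8 in ESD3. The rank too was lowest in D6T- and high on days 12 and 16, where fewer tags lay in peaks: the share was 14.8% in D9T-, 6.93% in D12S+ and 4.88% in D16S+. In a bulk library, a mark on more cells and more of it in each cell cannot be told apart.

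The peaks over Slc2a1 also differed in shape between libraries. In D6T- they were 5 separate pieces, the longest from 27.82 to 29.47 kb after the start site, over the gene's end. In D12S+ a single peak ran from 0.48 to 33.91 kb and carried the whole score of 628. The density of tags differed less than the covered length, with 14.3 tags per covered kb in D0, 18.8 in D12S+, 19.8 in D16S+ and 12.9 in iPSCs. In iPSCs the list held 5 peaks, among them 1 that lay before the start, from -5.82 to -0.06 kb, with a score of 73.1.

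**Figure D2:**
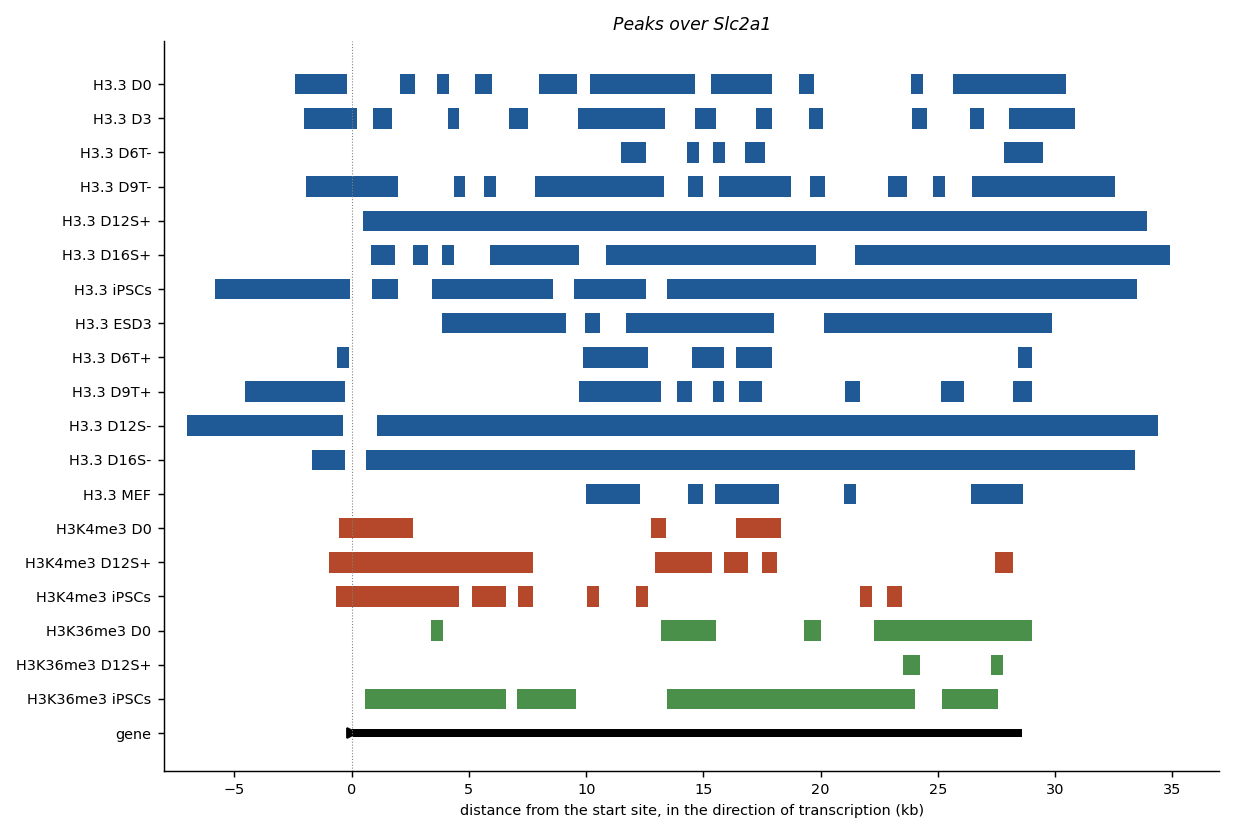
Peaks over Slc2a1 in kb from its start site, in the direction of transcription, with 1 row per library and mark, bars for peaks coloured by mark, and the gene as a black bar at the bottom. H3.3 covers most of the gene in D12S+ and D12S-, and H3K36me3 covers a longer stretch in iPSCs than in D0.

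Hk2, the hexokinase that is induced in growing and cancer cells, had H3.3 scores of 271 in D0, 212 in D3, 163 and 184 in D6T- and D9T-, 131 and 100 in D12S+ and D16S+, and 355 in iPSCs, and 224 in ESD3. Its score was lower in every library between D0 and iPSCs than at either end. The percentile did not dip on days 12 and 16: it was 81.3 in D0, 71.3 in D6T-, 85 in D12S+, 88.3 in D16S+ and 89.9 in iPSCs, and the lists of D12S+ and D16S+ held fewer tags in peaks altogether. The covered length was 18.3 kb in D0, 6.01 kb in D16S+ and 29.7 kb in iPSCs. Hk1, the hexokinase used in most adult tissues, is a long gene, and its peaks covered from 3.85% to 11.4% of its window along the route. Its scores were 137 in D0, 172 in D3, 178 and 206 in D6T- and D9T-, 87.3 and 58.9 in D12S+ and D16S+, and 135 in iPSCs, with percentiles between 59 and 73.

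Gpi1 and Ldha were the members with less H3.3 in iPSCs than in D0 past 2-fold. Gpi1 had scores of 231 in D0, 324 in D3, 449 and 399 in D6T- and D9T-, 256 and 139 in D12S+ and D16S+, and 50.4 in iPSCs, and 73.8 in ESD3. Its covered length was 14.6 kb in D0, 27.4 kb in D6T- and 4.41 kb in iPSCs. Ldha had 291 in D0, 226 in D3, 396 and 345 in D6T- and D9T-, 210 and 190 in D12S+ and D16S+, and 87 in iPSCs, and 197 in ESD3. Along the route both genes thus had their highest score in D6T-, where Slc2a1 had its lowest. Pfkl, Pfkp, Aldoa, Gapdh and Eno1 also had their highest score there, and the median of all genes was 0.82 higher in D6T- than in D3. By percentile Gpi1 and Ldha were not highest in D6T-: Gpi1 was at 91.7 in D6T- and 95.5 in D12S+, and Ldha at 96 in D6T- and 98.6 in D16S+.

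In the last step of the route, from D16S+ to iPSCs, most genes had a higher score. The share of all genes called higher was 63.5% and the share called lower was 2.57%, with a median log2 difference of 1.40, while the median of the 10 was -0.25. Gpi1 was lower by a log2 difference of -1.47 and Ldha by -1.13, and their differences stood at percentiles 1.1 and 2 of those of all genes. Hk1, Hk2 and Pfkl were called higher, at 1.20, 1.82 and 1.31. The share of tags in peaks was 4.88% in D16S+ and 14% in iPSCs, and the iPSC list kept up to 2 tags per position where the others of the route kept 1. The part of these settings in the differences was not tested.

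By percentile Gpi1 went from 95.3 in D16S+ to 67.8 in iPSCs and Ldha from 98.6 to 86.5. ESD3, the other pluripotent library, had percentiles of 86.9 for Gpi1 and 98.8 for Ldha, so the low rank of Ldha was seen in iPSCs and not in the embryonic stem cells. In iPSCs the H3.3 over Gpi1 was in 7 short pieces, the highest of which scored 10.4, against 244 for the highest in D6T-.

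**Figure D3:**
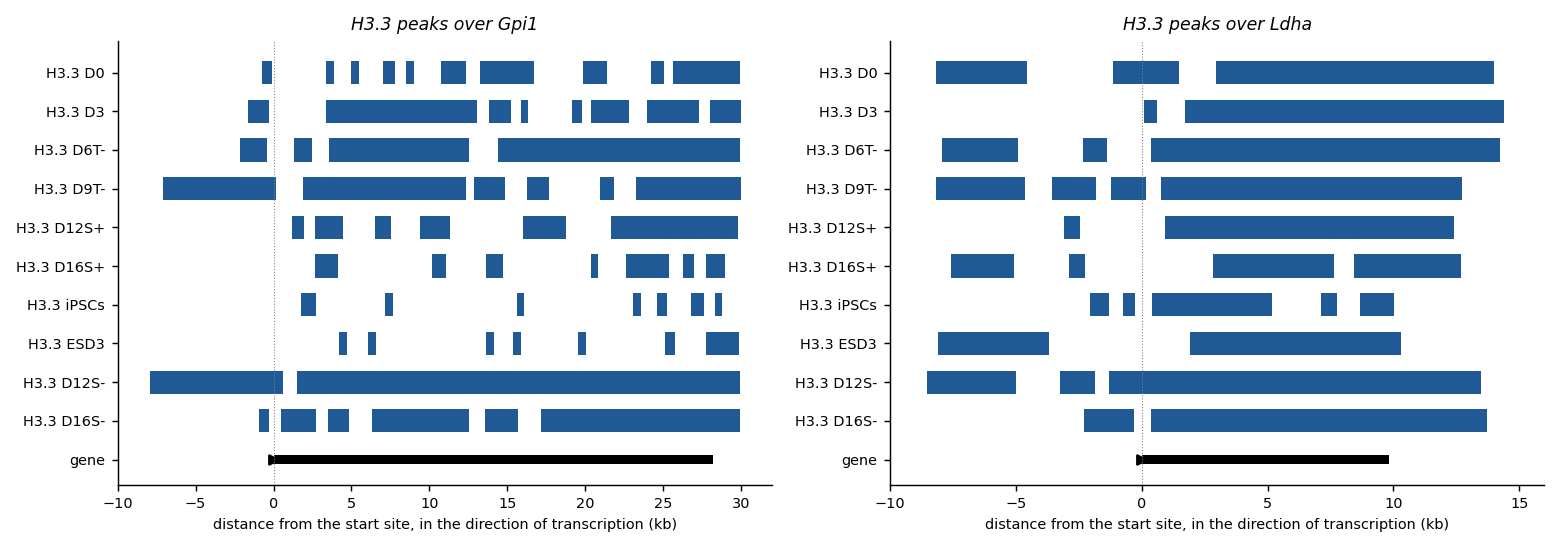
H3.3 peaks over Gpi1 and Ldha in kb from the start site used, in the direction of transcription, with 1 row per library, bars for peaks, and a black bar from the start site used to the gene's end. Covered length over Gpi1 goes from 27.4 kb in D6T- to 4.41 kb in iPSCs, and over Ldha from 17.9 kb to 8 kb.

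The phosphofructokinases were lower in rank. Pfkl had H3.3 scores of 5.94 in D0, 39.3 in D3, 46.1 and 21.2 in D6T- and D9T-, 37.8 and 18.1 in D12S+ and D16S+, and 44.9 in iPSCs. The D0 value came from a single peak of 0.5 kb, close to the lowest score in that list, 4.82, so its folds over D0 rest on few tags. Pfkp had 182 in D0, 205 in D3, 317 and 296 in D6T- and D9T-, 185 and 110 in D12S+ and D16S+, and 120 in iPSCs. Pfkl ran between percentiles 42.9 (D0) and 85.3 (D16S-) over the 12 libraries, and Pfkp between 66.6 and 87.

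**Figure D4:**
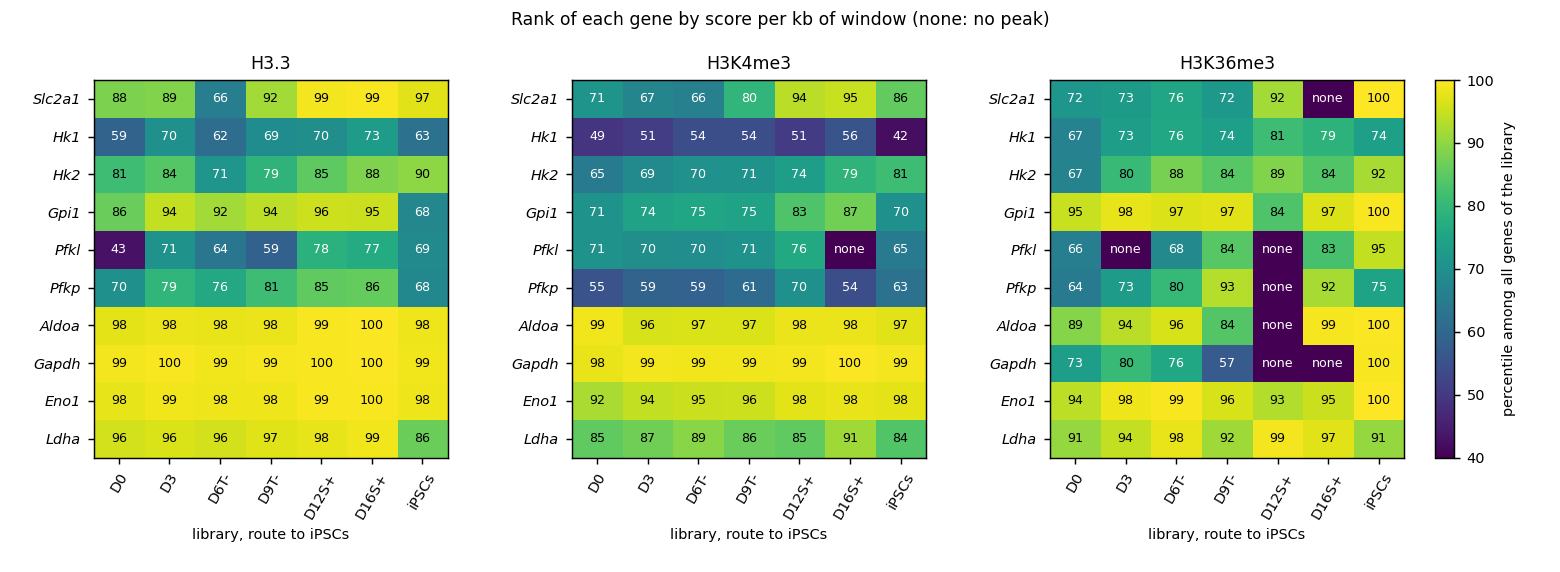
Percentile of each gene among all protein-coding genes, by summed score per kb of window, in the 7 libraries of the route for H3.3, H3K4me3 and H3K36me3 (none: no peak). Aldoa, Gapdh and Eno1 are at 97.6 or above for H3.3 throughout, and for H3K36me3 the number above the 90th percentile is 3 in D0 and 8 in iPSCs.

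From D0 to iPSCs, the end points of the route, 1 of the 10 genes was called higher in H3.3, Pfkl at a log2 difference of 2.92 (2.18 to 3.66), against 20.7% of all genes. Called lower were 2, Gpi1 at -2.19 (-2.42 to -1.97) and Ldha at -1.74 (-1.92 to -1.56), against 38.3% of all genes. Slc2a1 was higher by 0.77 (0.64 to 0.89), within 2-fold. The median over the 10 was -0.42 and over all genes -0.53, so the set as a whole sat close to the background. When only peaks at least 4-fold over input were kept, 8 of the 10 were called lower in place of 2, and so were 68.5% of all genes. On a score taken as a share of the tags in peaks, 2 of the 10 were called higher and 2 lower, against 26.3% and 30% of all genes, and Pfkl was not called when each list was limited to as many top-scoring peaks as the shortest held.

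A second fibroblast library and a second pluripotent library give the scale of differences between libraries of like cells. MEF was called lower than D0 in H3.3 at 6 of the 10 genes and higher at 1, against 61.3% and 3.45% of all genes. Pfkp was at 182 in D0 and at 5.57 in MEF, Slc2a1 at 267 and 102, and Gpi1 at 231 and 50.9. Gpi1 therefore had as low a score in the MEF library as in iPSCs, but its percentile was 81.3 in MEF and 67.8 in iPSCs. The MEF list held 7.64% of its tags in peaks, against 19.1% in D0 and 14% in iPSCs. With MEF in place of D0, 5 genes were called higher in iPSCs (Slc2a1, Hk1, Hk2, Pfkl and Pfkp) and none lower, against 47.5% of all genes called higher, which turns the counts around. ESD3 against iPSCs was called higher at 1 gene, Ldha at 1.18, and lower at 2, Hk1 at -1.58 and Pfkl at -1.53, against 5.68% and 48.1% of all genes. With ESD3 in place of iPSCs, 4 genes were called lower than in D0 (Hk1, Gpi1, Pfkp and Gapdh), against 60.6%, and 1 higher (Pfkl), against 10.8%.

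H3K4me3 was lower in iPSCs than in D0 at all 10 genes, with 5 past 2-fold and none called higher, while 69.8% of all genes were called lower and 3.85% higher. The 5 were Hk1 (-2.20), Aldoa (-1.78), Pfkl (-1.73), Ldha (-1.40) and Gpi1 (-1.35). Hk2, Slc2a1 and Eno1 differed least, at -0.04, -0.11 and -0.25, where the median of all genes was -1.38. The share of tags in peaks was 30.4% in D0 and 12.7% in iPSCs. On a score taken as a share of the tags in peaks, 3 genes were called higher and none lower, against 9.07% and 13.4% of all genes, so the direction of most H3K4me3 differences depends on the scaling.

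H3K36me3 was called lower in iPSCs at 5 genes, against 84.4% of all genes, and higher at 1, Slc2a1, against 3.2%. Slc2a1 was higher by a log2 difference of 1.01 (0.84 to 1.18), at 170 in D0 and 343 in iPSCs. The lower genes were Hk1 (-3.29), Ldha (-3.21), Pfkp (-2.83), Gpi1 (-1.54) and Eno1 (-1.02). The value of Pfkp rests on its neighbour: 89.9% of its D0 score came from a peak that ran 7.24 kb past the gene's end, and without peaks that lay on another gene the difference was 0.08. The median over the 10 was -0.93 and over all genes -3.19, and 8 of the 10 were above the latter. The share of tags in peaks was 31.3% in D0 and 2.88% in iPSCs, and on a score taken as a share of those tags 7 of the 10 were called higher and none lower, against 17.9% and 25.1% of all genes.

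**Figure D5:**
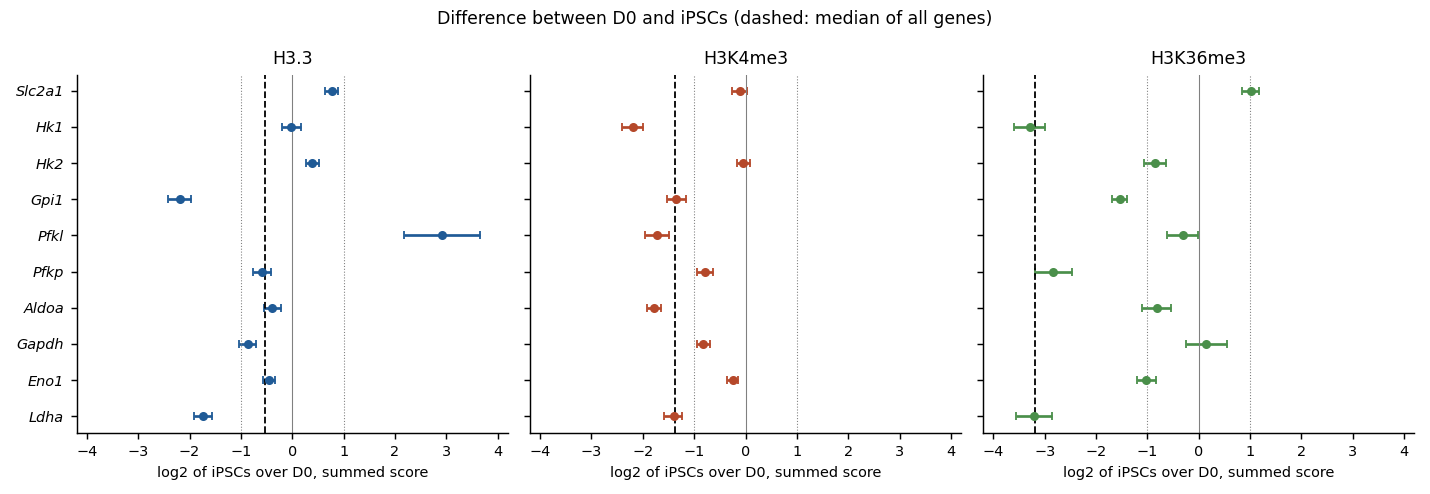
Log2 of the summed score in iPSCs over that in D0 for each gene, in 1 panel per mark, with bars for the 95% interval from counting error only and a dashed line at the median of all genes (H3.3 at -0.53, H3K4me3 at -1.38 and H3K36me3 at -3.19). Slc2a1 is the gene to the right of 1 in H3K36me3, and Gpi1 and Ldha are to the left of -1 in all 3 panels on the deposited scale.

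Along the route the H3K4me3 score of Slc2a1 was 253 in D0, 162 in D3, 224 and 304 in D6T- and D9T-, 343 and 150 in D12S+ and D16S+, and 234 in iPSCs. Its percentile was 71.1 in D0, 66.1 and 79.6 in D6T- and D9T-, 93.9 and 94.9 in D12S+ and D16S+, and 85.6 in iPSCs, so in rank this mark had its low point in the same library as H3.3. The covered length went from 5.7 kb in D0 to 13.5 kb in D12S+ and 9.47 kb in iPSCs. The peak at the start of Slc2a1 spanned -0.54 to 2.61 kb in D0, -0.97 to 7.75 kb in D12S+ and -0.66 to 4.58 kb in iPSCs.

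Hk2 had H3K4me3 scores of 312 in D0, 289 in D3, 470 and 326 in D6T- and D9T-, 149 and 68.6 in D12S+ and D16S+, and 304 in iPSCs, close to the same at both ends. Its covered length, however, was 3.93 kb in D0 and 12.9 kb in iPSCs, so the same number of tags lay over a longer stretch. Aldoa was at 624 in D0 and 182 in iPSCs, and its D0 peak of 11 kb ran 5.47 kb past the end of the gene. All 10 genes had an H3K4me3 peak in 6 of the 7 libraries, where the share of all genes with a peak ran from 66% (D12S+) to 70.3% (D0). In D16S+ 9 had one, with none at Pfkl, against 51.7% of all genes.

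H3K36me3 peaks were found at all 10 genes in D0, at 9 in D3, at 10 in D6T- and D9T-, at 6 in D12S+, at 8 in D16S+ and at 10 in iPSCs. The share of all genes with a peak was 49.7% in D0, 44.6% in D3, 23.5% in D12S+, 25.7% in D16S+ and 34.9% in iPSCs. Slc2a1 had scores of 170, 56.4, 38.3, 278 and 18.5 from D0 to D12S+, no peak in D16S+, and 343 in iPSCs. Its covered length was 10.3 kb in D0 and 21.5 kb in iPSCs, and its percentile went from 71.6 to 99.9. Gapdh had 40.7 in D0, 23.5 in D3, 8.47 in D6T-, 10.5 in D9T-, no peak in D12S+ or D16S+, and 45.3 in iPSCs.

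The set ranked higher for H3K36me3 at the end of the route than at its start. The median percentile of the 10 was 72.4 in D0 and 97 in iPSCs, and the number above the 90th percentile was 3 in D0 and 8 in iPSCs, Gapdh among the latter. Of all tags in H3K36me3 peaks, the 10 genes held 766 ppm in D0 and 3761 ppm in iPSCs. Ldha had a percentile of 90.6 in both libraries. Hk1 (66.6 and 73.9) and Pfkp (64.5 and 74.7) were higher in rank in iPSCs but below the 90th percentile in both. The D9T- list, with 42.4% of its tags in peaks, gave 8 of the 10 their highest score, for example 1164 for Gpi1. That of Pfkp, 1979, came to 60.5% from a peak that ran 29.4 kb past the gene's end, beyond the window. The other two, Slc2a1 and Gapdh, were highest in iPSCs. For Gapdh 62.3% of the iPSC score came from a peak before the gene of which only the edge touched the window, and with peaks given by their midpoint Gapdh was lower in iPSCs than in D0, by a log2 difference of -1.25.

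The marks lay at different places in the genes. H3K4me3 covered the start site used of 10 of the 10 genes in every library but D16S+, where it covered 4. Of all genes, 61.5% had their annotated 5′ end in such a peak in D0, 23.8% in D16S+ and 58.2% in iPSCs. For Aldoa, Eno1, Hk1 and Ldha RefSeq gives several starts, and the one used had H3K4me3 over it in the most libraries. Where several were equal, as for Aldoa, Eno1 and Ldha, the one nearest the gene's 5′ end was used. The counts of starts thus depend in part on that choice and are not on the same basis as the shares of all genes. The starts used for Hk1 and Ldha lie 39.5 and 4.33 kb inside the gene, and at the 5′ end of Hk1 no library had H3K4me3. H3K36me3 covered none of the 10 starts in any of the 7 libraries, against 1.22% of all genes in D0. H3.3 covered the starts of 4 genes in D0 (Eno1, Gapdh, Hk2 and Ldha), of 7 in D9T-, of 1 in D12S+ (Gapdh), of 1 in iPSCs (Hk2) and of none in ESD3. The share of all genes with the 5′ end in an H3.3 peak was 14.9%, 15.5%, 9.5%, 16.1% and 4.98% in the same order. At other starts with H3K4me3 in as many libraries, H3.3 also covered Eno1 and Ldha in D12S+ and Ldha in iPSCs. In D0, by contrast, it did not cover the other starts of Eno1.

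Along the gene body, H3.3 covered on average 42.9% of the first, 62% of the middle and 53% of the last of 3 equal parts of the 10 genes in D0, against 22.3%, 21.7% and 27.6% for all genes with a peak. In iPSCs the means were 41.2%, 49.7% and 55.2% against 24.8%, 18.1% and 19.4%. These means were above those of genes at large, but not each gene was. In iPSCs Hk1 (24.3%, 5.53% and 15.8%) was below in all 3 parts, as was Pfkl (10.5% of the first part, 0 in the others), and Pfkp (37%, 1.02% and 0) was below in 2. Gpi1 (15.5%, 5.32% and 20.7%) was below in 2 as well. The gene end lay inside an H3.3 peak at 7 of the 10 in D0, 7 in D12S+, 6 in iPSCs, 10 in D12S- and 10 in D16S-, against 20.8%, 10.9%, 14.8%, 25.2% and 15.7% of all genes.

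H3K4me3 in D0 covered 50.7% of the first part and 22.5% of the last, against 34% and 8.27% for all genes with a peak. It reached the gene end at 2 genes, against 6.48% of all genes. H3K36me3 in D0 had the opposite tilt, with 13.3% of the first part and 66.6% of the last, against 18.4% and 54.7%. It covered more of the last part than of the first at 10 of the 10, and at 83.4% of all genes with a peak. In iPSCs H3K36me3 covered 29.7%, 40.6% and 35.7%, against 6.63%, 11.2% and 11.9%. There 5 of the 10 had more in the last part, against 55.6% of all genes with a peak. H3K36me3 covered the gene end at 7 genes in D0 and at 1 in iPSCs, against 28.1% and 3.89% of all genes. Of the 61 H3.3 peaks of the set in D0, 29.5% overlapped an H3K4me3 peak and 47.5% an H3K36me3 peak, against 28.2% and 29.1% of all H3.3 peaks. Of the 58 in iPSCs, 48.3% and 39.7% did, against 28.9% and 9.98%.

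Cells were sorted by Thy-1 on days 6 and 9 and by SSEA-1 on days 12 and 16, and each sort gives 1 H3.3 pair. The study used these proteins to tell successful from unsuccessful reprogramming, and the later fate of the sorted cells is not in these data. On day 6 the fraction on the route, D6T-, was called higher than D6T+ at 3 genes, Gpi1 (1.02), Pfkl (1.39) and Pfkp (2.15), against 46.5% of all genes. On day 9, D9T- was called higher than D9T+ at 1 gene, Hk1 (1.01), against 22.9%. On day 12 all 10 genes had less H3.3 in the fraction on the route, D12S+, than in D12S-, and 6 were called lower, against 74.4% of all genes. These were Hk1 (-2.09), Hk2 (-2.02), Pfkl (-1.57), Pfkp (-1.55), Gpi1 (-1.45) and Ldha (-1.13). On day 16 all 10 were again lower in D16S+ than in D16S-, with 5 past 2-fold, against 61.2%: Pfkl (-2.74), Hk2 (-2.41), Hk1 (-2.24), Pfkp (-1.82) and Gpi1 (-1.75).

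The medians of the 10 were 0.64, 0.41, -1.29 and -1.20 on the 4 days and those of all genes 0.91, 0.31, -1.74 and -1.44, so the set followed the lists as a whole. The share of tags in peaks was 22% in D12S- and 6.93% in D12S+, and on a score taken as a share of those tags 1 of the 10, Slc2a1, was called higher on day 12 and none lower, against 9.17% and 22.3% of all genes. On that scale 8 of the 10 stood on the higher side, all but Hk1 and Hk2. On the deposited scale Slc2a1 was within 2-fold in all 4 pairs, at -0.71, 0.83, -0.48 and -0.38. As a share of tags in peaks it was past 2-fold in 2 of them, at -1.53 on day 6 and 1.18 on day 12, and with peaks given by their midpoint it was at 1.41 on day 9. In the fractions off the route its score was 108 on day 6 and 177 on day 9, against 876 on day 12 and 732 on day 16, so it was high on days 12 and 16 in both fractions.

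The fractions off the route on days 12 and 16 did not hold pluripotency markers at the level of D12S+ and D16S+: 5 of 10 had a peak in D12S- (summed score 520) against 8 of 10 in D12S+ (2424). Fibroblast markers had peaks at 7 of 8 genes in D12S- (870), without Postn, and at 5 of 8 in D12S+ (174), and the part of either in the results was not tested. D12S- had more H3.3 than D0 at all 10 glycolysis genes, and was called higher at 5 of them (Slc2a1, Hk1, Gpi1, Pfkl and Pfkp), against 30.6% of all genes. Hk2 was at 532 in D12S- and 534 in D16S-, against 271 in D0, and Gpi1 at 702 and 468 against 231. The median log2 difference from D0 to D12S- was 1.20 over the 10 and 0.37 over all genes. From D0 to D16S- it was 1.00 over the 10 and -0.47 over all genes.

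In the conversion to hematopoietic cells, all 10 genes had a higher H3.3 score in D4 than in MEF, past 2-fold each, as had 91.3% of all genes. Some D4 peaks reached far outside the window: that of Aldoa was 30 kb long and its window 7.52 kb. When each peak's score was counted by the share of the peak inside the window, 7 genes were past 2-fold, against 91.8%. With only peaks at least 4-fold over input 7 were, against 73.6%. Slc2a1 was at 102 in MEF, 435 in D4, 20.9 in cKit+ and 59.4 in cKit-. Hk2 was at 78.1, 723, 64.8 and 108, and Eno1 at 251, 606, 69.3 and 157, in the same order. The share of tags in peaks was 7.64% in MEF and 37.2% in D4, and on a score taken as a share of those tags 2 genes were called higher and 2 lower, against 31.3% and 5.88% of all genes. In cKit+ and cKit- cells 9 of the 10 had a peak, with none at Pfkl, against 33.3% and 31.9% of all genes. Eno1 and Gapdh were at percentiles 99.8 and 99.3 in cKit+, and Ldha was at 99.8, so by score per kb of window these genes stood near the top of that list. The cKit+ list did not show its lineage by markers: 4 of 8 fibroblast markers had a peak (summed score 154) and 5 of 10 hematopoietic markers (142).

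The rest of the pathway was described by 3 lists of other genes. Among 21 other glycolytic enzymes and transporters, 15 had an H3.3 peak in D0 and 17 in iPSCs, against 61.9% and 61.3% of all genes, and 4 were called higher and 7 lower, against 20.7% and 38.3%, with a median log2 difference of -0.85 where both libraries had a peak. Among 16 regulators of glycolysis 5 were called higher and 5 lower, with a median of -1.15. Among 13 genes of pyruvate entry and the citric acid cycle, the mitochondrial continuation of glucose breakdown, 4 were called higher and 1 lower, with a median of 0.09, where the median of all genes was -0.53. In H3K4me3 the 3 lists had 10, 12 and 10 genes called lower in the same order, against 69.8% of all genes. In H3K36me3 they had 13, 9 and 12, against 84.4%, and in these marks at most 1 gene of each list was called higher. The list sizes include genes with no peak in either library, which the shares called higher or lower leave out. In the same order these numbered 4, 1 and 0 in H3.3, 3, 0 and 0 in H3K4me3, and 5, 6 and 0 in H3K36me3.

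Slc2a3, which encodes the glucose carrier GLUT3, was at 112 in D0 and 557 in iPSCs, 4.99-fold higher, and at 509 in ESD3 and 39 in MEF. Pgk1, the phosphoglycerate kinase gene, was at 79.4 in D0 and 15.1 in iPSCs, 5.27-fold lower, but at 26.5 in MEF, within 2-fold of iPSCs. Slc16a3, which encodes the lactate exporter MCT4, was at 138 and 14.1, 9.77-fold lower, with 61.5 in MEF, and Bpgm, which encodes the enzyme of the bisphosphoglycerate side path, at 143 and 10.8, with 87.3 in MEF. The glucose carrier and the lactate exporter thus differed in opposite directions.

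Hif1a, the oxygen-sensitive subunit of a hypoxia-inducible factor, was at 443 in D0 and 6.44 in iPSCs, 68.8-fold lower, and at 11.3 in ESD3. In the MEF library Hif1a was at 5.35, as low as in iPSCs, so the fold rests on which fibroblast library is used. Epas1, which encodes a related subunit, was at 32.1 in D0, 141 in iPSCs and 29.6 in ESD3. Pdk3, a kinase gene whose product holds back pyruvate dehydrogenase, had an H3.3 score of 7.05 and an H3K36me3 score of 145 in D0, and no peak of either mark in iPSCs. Its H3.3 score in D0 was close to the lowest in that list, 4.82, and it had no H3.3 peak in MEF.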

How the data were processed

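The peak lists of 30 libraries (16 of H3.3 and 7 of each other mark) were analysed, and the 16 inputs enter only through the authors' peak calling. Per the study's methods and the submitters' processing notes, reads were mapped to mm9 with STAR, reads at several loci or with excess mismatches were removed, and HOMER findPeaks in histone style was run on each library against an input, with no pooling (versions not given in the sources used here). Per the file headers, the deposited score is a signal, each peak's normalized tag count per 10 M tags with no input subtracted, and the enrichment over input was deposited as a ratio of at least 2 for H3.3 and 4 for the other marks. The p-value limit against input was 0.0001. Per the file headers, tags at 1 position were counted once, except up to 2 in iPSCs, MEF and cKit-, 3 in D4 and 4 in cKit+ (all H3.3).

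Gene spans came from GENCODE vM1 protein-coding genes on mm9 (22380 records, 22238 symbols, the longest record of each kept). A peak overlapping a gene's span with 1 kb on each side by at least 1 bp was given to that gene with its whole score. Log2 differences used as floor the higher of the 2 libraries' lowest peak scores, and 95% intervals cover counting error only. RefSeq promoters were placed in mm9 by exact match. Python 3.11.15, numpy 2.4.6, pandas 2.3.3 and matplotlib 3.10.9 were used, and the scripts were tested on simulated data. The genes, lists and 10 alternatives were chosen with earlier results of these data known. Of the lists, a gene was named when its H3.3 score differed at least 4-fold between D0 and iPSCs with a peak in both, or when it had peaks in 1 of these libraries only, in the same direction in at least 2 marks.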

Additional observations from a re-analysis of the deposited data

Results flagged for a closer look

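In 4 genes the sorted fraction on the route stood above the other fraction on an early day and below it on the later days, past 2-fold each time. Log2 differences in H3.3 score were 1.01 on day 9, -2.09 on day 12 and -2.24 on day 16 for Hk1, and 1.02 on day 6, -1.45 on day 12 and -1.75 on day 16 for Gpi1. For Pfkl they were 1.39 on day 6, -1.57 on day 12 and -2.74 on day 16, and for Pfkp 2.15, -1.55 and -1.82 on the same days. The medians of all genes were 0.91, 0.31, -1.74 and -1.44 on days 6, 9, 12 and 16, so the lists as a whole turned in the same way. On a score taken as a share of tags in peaks, day 12 came to 0.21 for Gpi1, 0.10 for Pfkl and 0.12 for Pfkp. With 1 library per fraction and different surface proteins sorted on the early and the late days, the difference between days was not tested.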

How the results depend on the processing

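No paired analysis was possible because each group was 1 library with no replicate number, and for the same reason no replicate could be left out. In the counts below, higher and lower mean called past 2-fold, and shares of all genes in the same direction stand in brackets. With only peaks at least 4-fold over input, the genes of the set with an H3.3 peak numbered 2 in MEF, 0 in cKit+ and 1 in cKit-. These counts have no share of all genes beside them, so they do not set the 10 genes apart from the lists. All genes with a peak in MEF or D4 numbered 6677 under this filter and 16237 without it. From D0 to iPSCs 8 of the 10 were lower under it (68.5%) and 0 higher (6.67%). In the sorted pairs 5 were lower in D9T- (46.4%), 1 in D6T- (16.5%) and 8 in D16S+ (56.9%), and Pfkp on day 6 was -0.24. With equal numbers of top-scoring peaks 0 were higher in H3.3 in iPSCs (18.3%) and 1 was lower in D6T- (5%).

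With the score as a share of tags in peaks, the genes called higher and lower from D0 to iPSCs numbered 3 (9.07%) and 0 (13.4%) in H3K4me3 and 7 (17.9%) and 0 (25.1%) in H3K36me3, and those higher in H3.3 numbered 2 (26.3%). The sorted pairs had 1 higher (22.3%) and 1 lower (11.6%) on day 6, 0 higher (15.6%) on day 9, 1 higher (9.17%) and 0 lower (22.3%) on day 12, and 2 higher (13.8%) and 2 lower (27%) on day 16, and MEF to D4 had 2 higher (31.3%) and 2 lower (5.88%). Under it, H3K36me3 in iPSCs over D0 turned to 0.15 for Hk1, 1.90 for Gpi1, 0.61 for Pfkp, 2.43 for Eno1 and 0.23 for Ldha, and H3.3 on day 12 to 0.21 for Gpi1, 0.10 for Pfkl, 0.12 for Pfkp and 0.53 for Ldha. This scaling divides by shares that differ between the lists.

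With MEF for D0, 5 genes were higher (47.5%) and 0 lower (16.2%) in iPSCs, and with ESD3 for iPSCs 4 were lower (60.6%) and 1 higher (10.8%). Without peaks on another gene, 2 genes were higher in H3K4me3 in iPSCs (7.28%), 2 lower in D9T- (12.5%), 1 higher in D12S+ (6.23%) and 1 lower in D4 (8.67%). With peaks given by midpoint, 2 genes were higher in D9T- (23.3%), 1 higher in D16S+ (7.13%) and 1 lower in D4 (4.61%), and without flanks 2 were higher in D9T- (25.3%). H3K36me3 at Pfkp turned to 0.48 by midpoint and 0.08 without peaks on another gene. Ranked by summed score, 6 genes were above the 90th percentile for H3K4me3 in iPSCs and 1 for H3K36me3 in D0. Except where a value's construction is named, the cause was not tested. Of the counts over the set under alternatives, 277 kept close to the reported one and 37 moved, and of the single-gene differences 278 kept close, 180 moved and 12 turned.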
